A study of Mus musculus with 8 samples.

Results

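The 9 genes described here encode matricellular proteins and the provisional matrix protein fibronectin: the thrombospondins Thbs1 and Thbs2, the CCN proteins Ccn1 and Ccn2, Sparc and its relative Sparcl1, periostin (Postn), tenascin-C (Tnc) and fibronectin (Fn1). They were chosen by symbol, as a list of 9 of the 29713 genes in the deposited tables. RNA sequencing had been carried out on 8 mouse libraries, with 1 library for each group, so no spread between replicates can be had and no test across libraries was made. The glia and neuron libraries were labelled as coming from brain of strain C57. One library was labelled R1 ESC, the name of a line of embryonic stem cells, and was attributed to the inner cell mass and to strain 129X1 x 129S1. Mouse embryonic fibroblasts (MEFs) came from day 13.5 embryos of strain ICR in one library and of strain OG2 in the other. Cerebellum, hippocampus and cortex were tissue of strain C57. The labels give no age or sex of the brain donors and no way of isolating or culturing the glia and neurons, and they do not say how many animals stand behind a library.

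Matricellular proteins are secreted into the extracellular matrix, where they mostly do not build fibres but bind integrins and other receptors, growth factors and structural proteins. They are typically high in development and after injury and low in resting tissue, and fibronectin forms much of the provisional matrix on which cells then migrate. In the brain, astrocytes release thrombospondins and Sparcl1 (hevin), which promote synapse formation, and Sparc, which opposes hevin. Ccn1 and Ccn2 are classical targets of the transcription factors YAP and TEAD, and several of the 9 genes respond to TGF-beta.

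Levels are given as TPM (a level per transcript length that sums to the same total in each library). Library totals ran from 2147004 to 5864673 estimated counts, and 4132 to 10664 genes reached 10 TPM. A listed 0 allows up to 3 counts, worth 0.461 to 0.943 TPM on a transcript of 2000 bases. Intervals on levels are exact Poisson 95% intervals and intervals on ratios exact Clopper-Pearson 95% intervals. They come from the estimated counts and cover counting error only, not differences between animals, cultures or preparations. A gene was called between groups when no library of the higher group fell under 10 TPM and the nearest libraries of both groups were 4-fold or more apart after 1 TPM was added to each. In bulk RNA, fewer cells of a type and less RNA per cell cannot be told apart.

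The labels were checked against marker genes. In glia, 8 of 10 astrocyte markers reached 10 TPM, with Gfap at 1492 TPM and Aqp4 at 231 TPM, although Gjb6 was at 0. The glia library also held 9 of 10 microglia markers, 7 of 10 fibroblast markers, 4 of 10 neuron markers and 2 of 10 endothelial markers at that level. Among the neuron markers in glia, Rbfox3 was at 0 and Stmn2 at 288 TPM, and among the endothelial markers Cldn5 and Pecam1 were at 0 and Slco1a4 at 135 TPM. All 10 neuron markers reached 10 TPM in the neuron library, as did 4 of 10 astrocyte markers there. The library labelled R1 ESC had only 2 of 10 pluripotency markers at 10 TPM, Pou5f1 at 20.2 TPM and Nanog at 10.3 TPM, and 5 were at 0. Of 10 epithelial markers it held 3 at 10 TPM or more, Aldh3a1 at 405 TPM, Krt14 at 142 TPM and Krt8 at 36.9 TPM, while Krt5 and Cldn4 were at 0 and the median of the list was 2.0 TPM. Its ribosomal protein genes took 48.9% of all TPM, against 4.53% to 20.8% in the other 7 libraries.

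Promoter sequences were available from RefSeq (build GRCm38.p6) for 5 of the 9 genes, Thbs2, Ccn1, Sparc, Postn and Tnc. The 250 bases upstream of the start are shown for Ccn1, Tnc and Postn, because all 3 genes were high in both MEF libraries while only Ccn1 and Tnc were also high in glia. Capitals mark the letters TATAAA, those of a TATA box, and, in Ccn1, a TEAD motif (GGAATG) read on the minus strand of the printed sequence. The Ccn1 promoter lies at chr3:145649986-145650235 on the minus strand, that of Tnc at chr4:64047016-64047265 on the minus strand and that of Postn at chr3:54360857-54361106 on the plus strand.
Ccn1: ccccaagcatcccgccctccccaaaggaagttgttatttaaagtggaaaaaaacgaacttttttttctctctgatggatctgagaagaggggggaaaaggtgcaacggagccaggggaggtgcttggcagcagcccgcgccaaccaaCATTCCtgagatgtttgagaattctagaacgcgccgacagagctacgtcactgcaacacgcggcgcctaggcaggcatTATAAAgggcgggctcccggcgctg
Tnc: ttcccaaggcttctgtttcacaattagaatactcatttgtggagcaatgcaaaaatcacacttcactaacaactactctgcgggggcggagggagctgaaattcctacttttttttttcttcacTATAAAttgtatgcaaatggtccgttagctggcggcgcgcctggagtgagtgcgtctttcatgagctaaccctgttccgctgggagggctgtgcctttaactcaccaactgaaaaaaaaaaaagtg
Postn: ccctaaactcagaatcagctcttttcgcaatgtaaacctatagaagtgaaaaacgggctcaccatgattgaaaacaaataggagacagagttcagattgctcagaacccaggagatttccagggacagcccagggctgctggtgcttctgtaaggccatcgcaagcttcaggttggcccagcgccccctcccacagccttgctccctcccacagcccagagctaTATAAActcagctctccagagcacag
The TEAD motif of Ccn1 begins 103 bases and its TATA box 25 bases before the start. In Postn the TATA box begins 26 bases before the start. In Tnc the same letters begin 126 bases before it, farther upstream than in Ccn1 and Postn. RefSeq lists 2 starts each for Postn and Tnc. The windows printed are those at the 5′ end of the annotated gene. Of the other windows, that of Postn held none of the motifs, and that of Tnc held the same TATAAA, 205 bases before its start. Close to that start the second Tnc window also held the letters TATATAAG, which an exact search for TATAAA misses. The following motifs were searched on both strands in this window: GGAATG (TEAD), TGANTCA (AP-1), the CArG box of SRF and TATAAA, none of which overlapped another in the 3 sequences shown. Among 32851 promoters of the same length, 12.6% held the TEAD letters, 6.75% the AP-1 letters, 1.47% a CArG box and 12.4% TATAAA, so that neither the TEAD nor the TATA letters are rare. In the other members, Thbs2 held TATAAA on the minus strand, 126 bases before its start, and Sparc held none of the motifs. A match describes letters only and is no evidence of a binding site.

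The thrombospondins Thbs1 (ENSMUSG00000040152, mm10 chr2:118111876-118127133, plus strand) and Thbs2 (ENSMUSG00000023885, chr17:14665500-14694235, minus strand) are trimeric glycoproteins that bind CD47 and integrins, and Thbs1 activates latent TGF-beta. Thbs1 stood at 615 TPM in glia, 0.91 TPM in neurons, 2.37 TPM in the library labelled R1 ESC, 1726 TPM in ICR MEFs, 1773 TPM in OG2 MEFs, 3.52 TPM in cerebellum, 3.89 TPM in hippocampus and 4.08 TPM in cortex. It was thus an abundant transcript in glia and MEFs, where it ranked 239, 101 and 105 among all genes, and was under 5 TPM elsewhere. In hippocampus its effective length was 3237 bases, against 5652 to 5704 bases in the other libraries, so the 20 reads there gave a higher TPM than they would have at the usual length, and in CPM (counts scaled by the library total alone) hippocampus had 5.42 and cortex 9.87. Thbs2 was lower than Thbs1 in glia and MEFs, with 19.3 TPM in glia, 202 TPM in ICR MEFs and 191 TPM in OG2 MEFs. It had 2.64 TPM in neurons and 3.84 TPM in the library labelled R1 ESC. The regions had 3.98 TPM in cerebellum, 2.85 TPM in hippocampus and 3.50 TPM in cortex. As for Thbs1, both MEF libraries lay above glia, and glia above the remaining 5 libraries.

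The ratio of Thbs1 to Thbs2 within a library, which no scaling between libraries can change, was 31.8 in glia (95% interval 28.5 to 35.7), against 8.53 in ICR MEFs (8.22 to 8.85) and 9.28 in OG2 MEFs (8.97 to 9.61). In neurons it was 0.345 (0.182 to 0.619) and in the library labelled R1 ESC 0.617 (0.403 to 0.933), on 64 reads or fewer per gene in both. In cerebellum, hippocampus and cortex the 2 genes did not differ beyond counting error, with ratios of 0.884, 1.36 and 1.17 whose intervals all held 1.

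Ccn1 (Cyr61, ENSMUSG00000028195, chr3:145646976-145649981, minus strand) and Ccn2 (Ctgf, ENSMUSG00000019997, chr10:24595442-24598683, plus strand) encode secreted proteins that bind integrins and promote adhesion and matrix production. Ccn1 had 779 TPM in glia, 20.6 TPM in neurons, 32.2 TPM in the library labelled R1 ESC, 484 TPM in ICR MEFs, 468 TPM in OG2 MEFs, 3.81 TPM in cerebellum, 6.48 TPM in hippocampus and 20.4 TPM in cortex. Glia was the highest library, and in TPM neurons and cortex did not differ beyond counting error, at a ratio of 1.01 (0.760 to 1.35). In CPM, however, Ccn1 had 29.9 in neurons and 16.2 in cortex. Ccn2 had 670.4 TPM in glia, 1.30 TPM in neurons, 5.63 TPM in the library labelled R1 ESC, 443 TPM in ICR MEFs, 472 TPM in OG2 MEFs, 5.61 TPM in cerebellum, 17.0 TPM in hippocampus and 38.1 TPM in cortex. The 3 brain regions kept the order cortex, hippocampus, cerebellum for both genes, but for Ccn1 the step between cerebellum and hippocampus was within counting error.

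Ccn1 and Ccn2 were close to each other in glia, at a ratio of 1.16 (1.11 to 1.21), in ICR MEFs at 1.09 (1.03 to 1.15) and in OG2 MEFs at 0.991 (0.943 to 1.04). Ccn1 exceeded Ccn2 15.9-fold in neurons (8.09 to 35.6), where Ccn2 rested on 9 reads, and 5.72-fold in the library labelled R1 ESC (4.01 to 8.35). The order was turned round in hippocampus, at 0.381 (0.211 to 0.662), and in cortex, at 0.536 (0.411 to 0.693). In cerebellum the ratio of 0.679 had an interval that held 1.

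**Figure D1:**
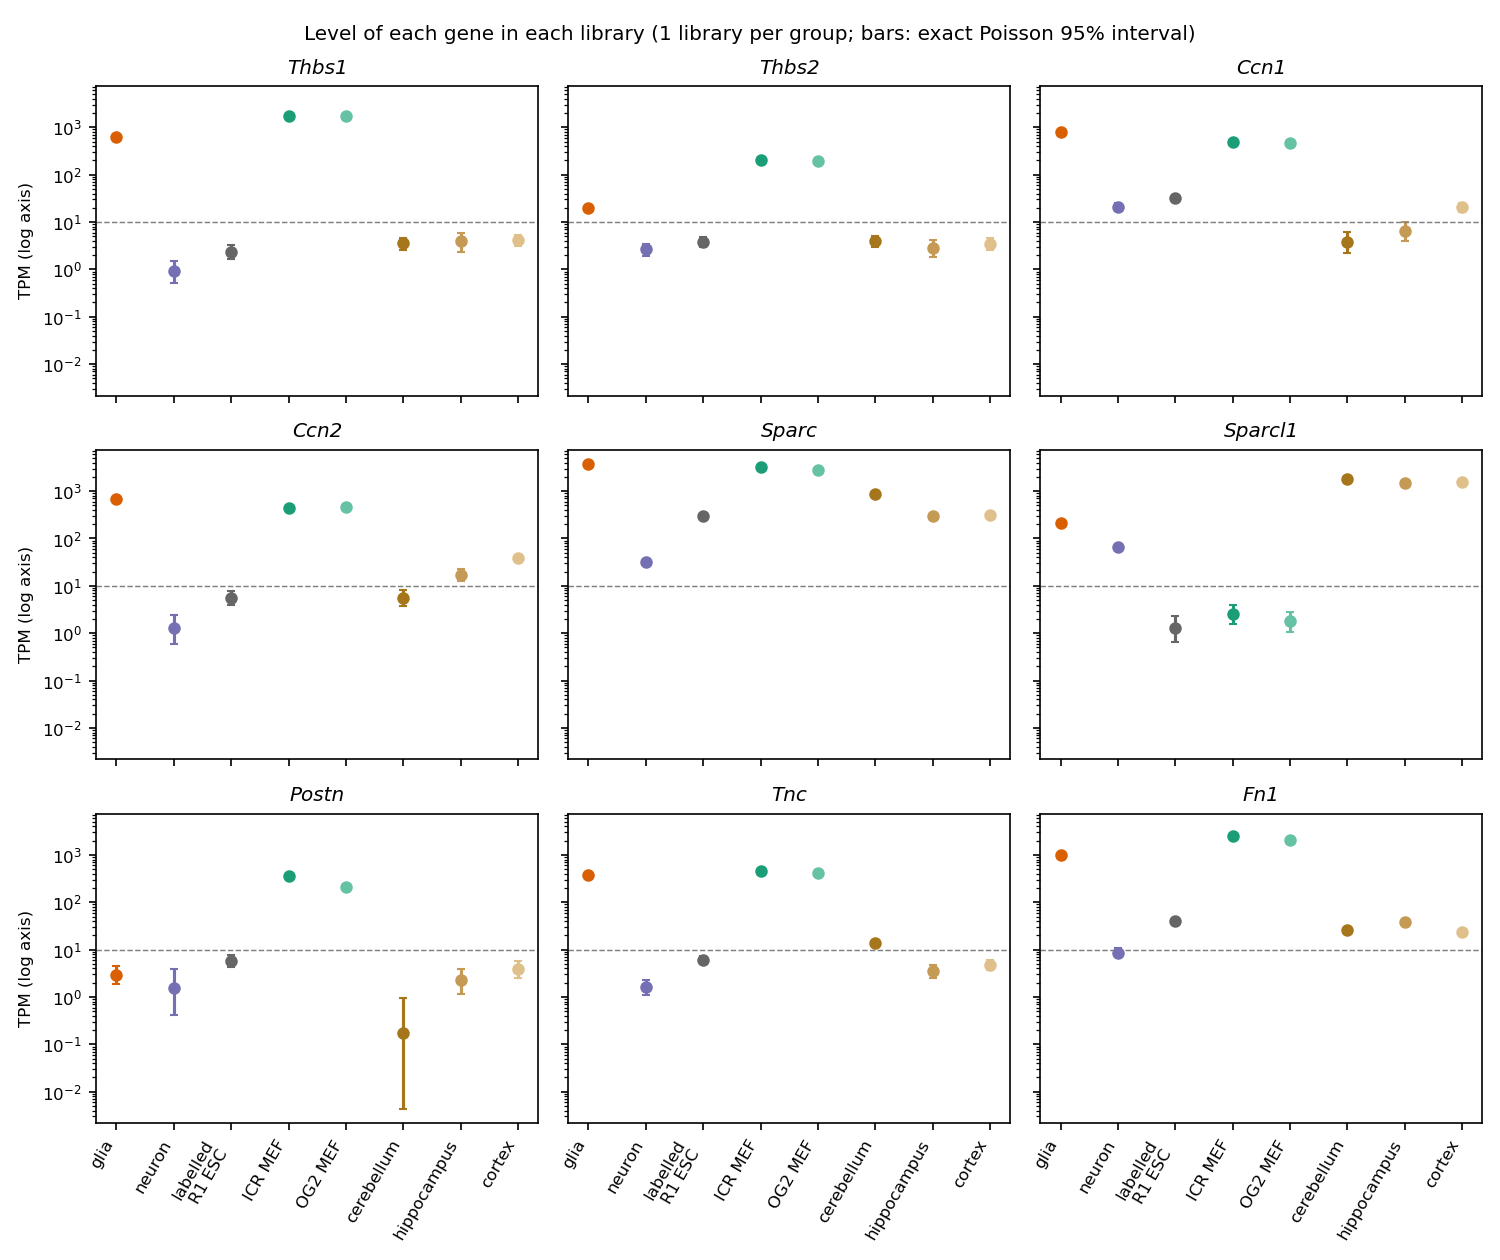
Level of each of the 9 genes (TPM, log axis) in the 8 libraries, with points for the libraries, bars for the exact Poisson 95% interval and a dashed line at 10 TPM. For 7 of the 9 genes glia and both MEF libraries stand above the other 5 libraries; Sparcl1 is highest in the 3 brain regions, between 1511 and 1839.7 TPM, and Postn is above 10 TPM only in the MEF libraries.

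Sparc (osteonectin, ENSMUSG00000018593, chr11:55394500-55423183, minus strand) binds collagen and calcium, and Sparcl1 (hevin, ENSMUSG00000029309, chr5:104079111-104113733, minus strand) shares its extracellular calcium-binding domain. Sparc was the most abundant of the 9 genes in glia and MEFs: it had 3706 TPM in glia, 31.3 TPM in neurons, 302 TPM in the library labelled R1 ESC, 3203 TPM in ICR MEFs, 2832 TPM in OG2 MEFs, 883 TPM in cerebellum, 300.2 TPM in hippocampus and 312 TPM in cortex. In glia it ranked 12 among all genes. It was above 10 TPM in every library, and hippocampus and cortex did not differ beyond counting error, at a ratio of 1.04 (0.958 to 1.13).

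Against the 3 brain regions, Sparc was higher in glia and both MEF libraries, whereas Sparcl1 was lower there. Both genes were higher in glia than in neurons, and both were lower in neurons than in each region. Sparcl1 had 1839.7 TPM in cerebellum, 1511 TPM in hippocampus, 1574 TPM in cortex, 215 TPM in glia and 66.3 TPM in neurons. Sparcl1 was lower still in ICR MEFs (2.58 TPM), OG2 MEFs (1.78 TPM) and the library labelled R1 ESC (1.28 TPM). It was the one member whose 3 highest libraries were the brain regions. The ratio of Sparc to Sparcl1 was 17.2 in glia (16.4 to 18.1), 0.472 in neurons (0.399 to 0.556), 236 (132 to 474) in the library labelled R1 ESC, 1241 in ICR MEFs (812 to 2006) and 1591 in OG2 MEFs (993 to 2731). In the brain regions it was 0.480 in cerebellum (0.464 to 0.497), 0.199 in hippocampus (0.185 to 0.213) and 0.198 in cortex (0.188 to 0.210). Sparc was therefore the higher of the 2 in glia, MEFs and the library labelled R1 ESC, and Sparcl1 the higher in neurons and all 3 regions.

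**Figure D2:**
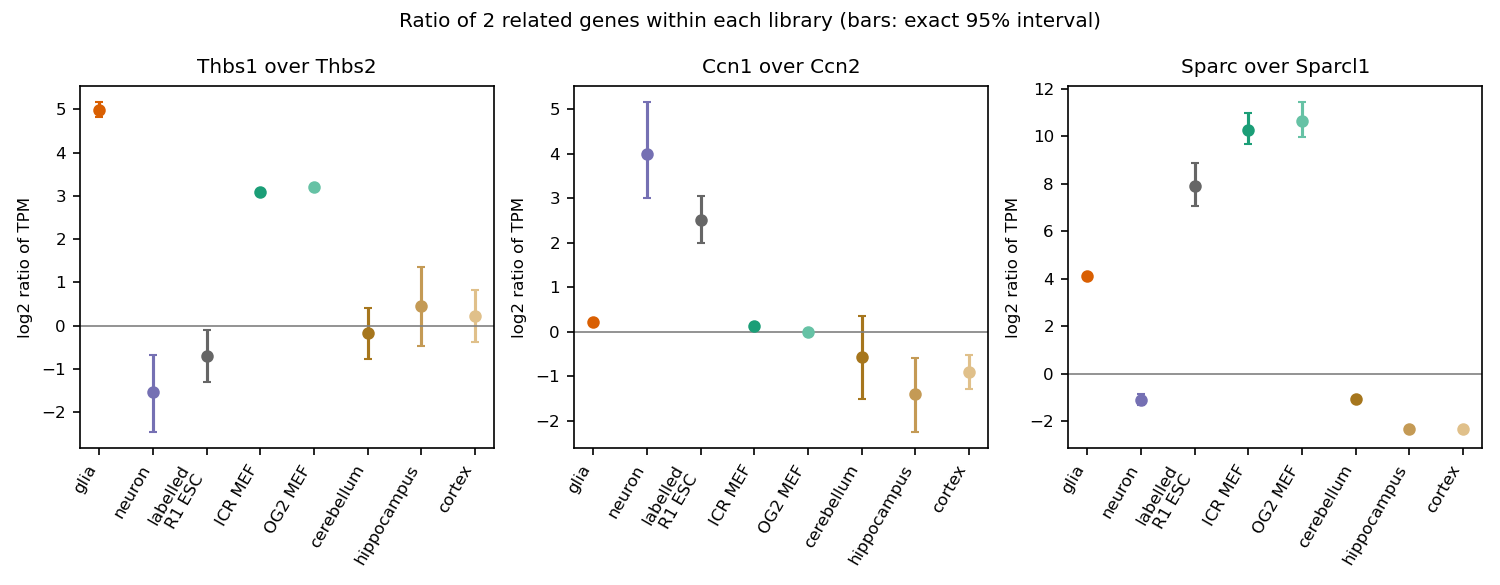
Ratio of 2 related genes within each library (log2 of the TPM ratio, with exact 95% intervals), for Thbs1 over Thbs2, Ccn1 over Ccn2 and Sparc over Sparcl1. Sparc over Sparcl1 lies above 0 in glia, the library labelled R1 ESC and both MEF libraries and below 0 in neurons and the 3 brain regions, and Thbs1 over Thbs2 is highest in glia, at 4.99 on the log2 scale.

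Postn (ENSMUSG00000027750, chr3:54361109-54391037, plus strand) encodes periostin, which binds integrins and supports collagen crosslinking in connective tissue. Its level was 2.97 TPM in glia, 1.53 TPM in neurons, 5.77 TPM in the library labelled R1 ESC, 358 TPM in ICR MEFs, 215 TPM in OG2 MEFs, 0.17 TPM in cerebellum, 2.25 TPM in hippocampus and 3.92 TPM in cortex. Only the MEF libraries reached 10 TPM, and outside them Postn rested on 1 to 50 reads. Its 9 annotated transcripts gave effective lengths between 847 bases in neurons, on 4 reads, and 3351 bases in hippocampus, so differences among the low libraries are poorly fixed.

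Tnc (ENSMUSG00000028364, chr4:63959785-64047015, minus strand) encodes tenascin-C, a hexameric anti-adhesive glycoprotein of developing and injured tissue. It had 372 TPM in glia, 1.60 TPM in neurons, 5.93 TPM in the library labelled R1 ESC, 454 TPM in ICR MEFs, 424 TPM in OG2 MEFs, 13.9 TPM in cerebellum, 3.50 TPM in hippocampus and 4.70 TPM in cortex. Glia and the MEF libraries formed a narrow upper range, with cerebellum next.

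Fn1 (ENSMUSG00000026193, chr1:71585520-71653200, minus strand) encodes fibronectin, bound by cells chiefly through integrin alpha-5 beta-1. Its level was 1018 TPM in glia, 8.63 TPM in neurons, 41.1 TPM in the library labelled R1 ESC, 2541 TPM in ICR MEFs, 2036 TPM in OG2 MEFs, 26.2 TPM in cerebellum, 37.5 TPM in hippocampus and 23.9 TPM in cortex. Fn1 has 14 transcripts in the annotation, and its effective length was 3348 bases in neurons and 3356 bases in the library labelled R1 ESC, against 6620 to 6699 bases in glia and MEFs. Without regard to length, Fn1 had 3301 CPM in glia, 22.4 CPM in neurons and 185 CPM in the library labelled R1 ESC. The estimated count of Fn1 was not a whole number in any of the 8 libraries, while Thbs1, Thbs2, Ccn1, Sparcl1 and Postn had whole counts in all 8.

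Overlapping annotated genes could add reads to 5 members, since the strandedness of the counting is not given in the sources used here. The highest level among them in any library was 7.41 TPM, for the antisense gene Gm26703 at Sparcl1. Tnc overlaps 8030451A03Rik, which reached 4.69 TPM.

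Summed over the 9 genes, the level was 7398 TPM in glia, 135 TPM in neurons, 400.4 TPM in the library labelled R1 ESC, 9415 TPM in ICR MEFs, 8414 TPM in OG2 MEFs, 2780.2 TPM in cerebellum, 1885 TPM in hippocampus and 1985 TPM in cortex. The make-up differed as well. Sparcl1 took 66.2% of it in cerebellum, 80.2% in hippocampus and 79.3% in cortex, and 49.2% in neurons, against 2.91% in glia and under 0.1% in both MEF libraries. Sparc took 50.1% in glia and 75.5% in the library labelled R1 ESC, and Fn1 took 27.0% in ICR MEFs and 24.2% in OG2 MEFs.

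**Figure D3:**
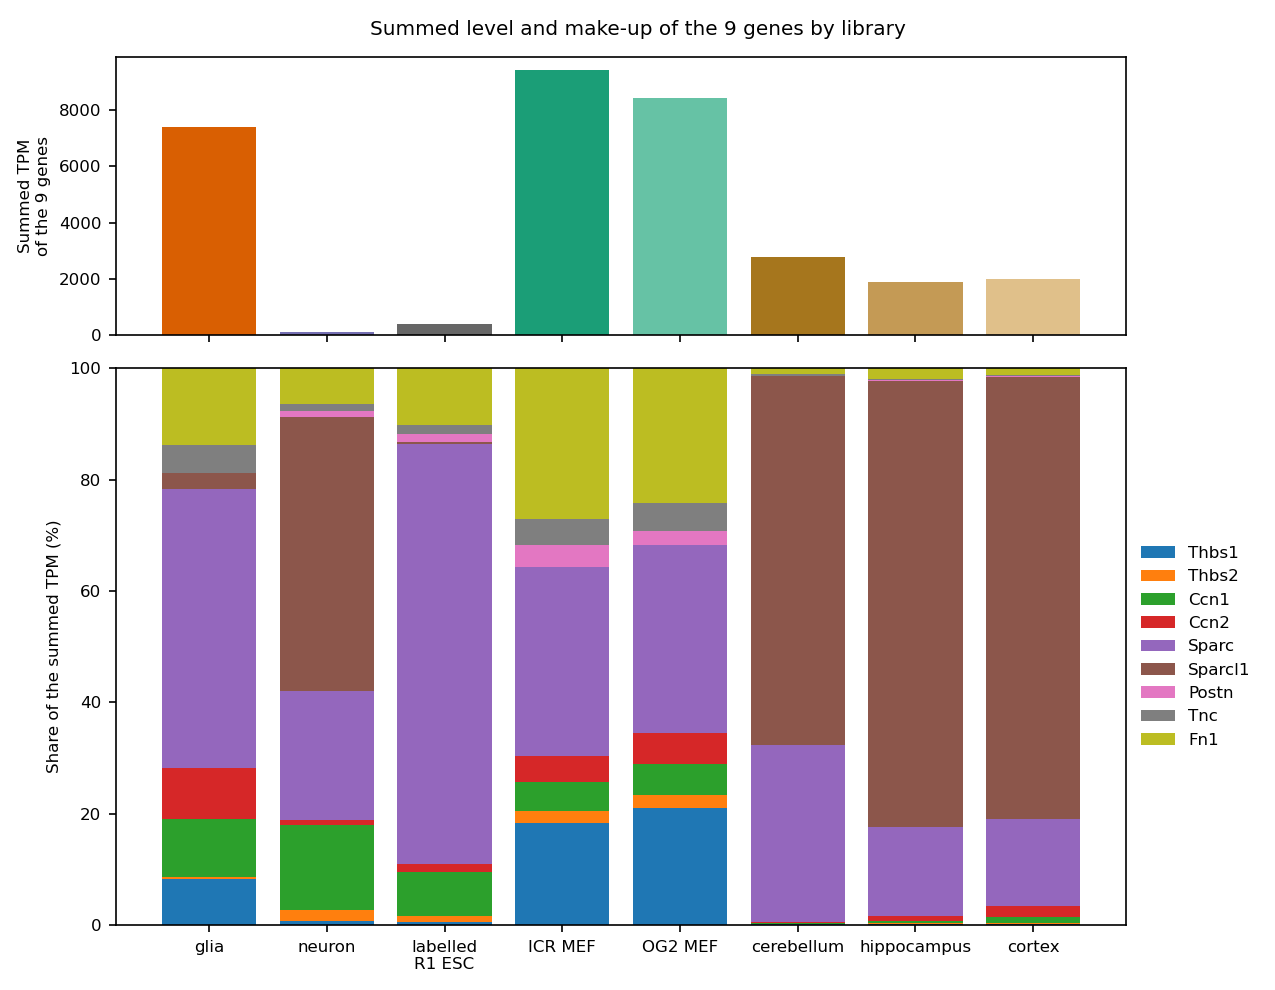
Summed TPM of the 9 genes in each library (upper bars) and the share of each gene in that sum (lower stacked bars, percent). The sum is largest in the 2 MEF libraries and glia, and Sparcl1 makes up 66.2% to 80.2% of it in the brain regions but 2.91% in glia.

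In glia against neurons, 7 of the 9 genes were called higher and 0 lower: Thbs1, Thbs2, Ccn1, Ccn2, Sparc, Tnc and Fn1. Of all 11185 genes tested, 30.5% were called higher in glia and 10.4% lower. The largest differences were those of Thbs1, 676-fold higher in glia (416 to 1183), Ccn2, 516-fold (271 to 1129), and Tnc, 232-fold (165 to 338). Sparc was 118-fold higher (103 to 137), Fn1 118-fold (95.8 to 147), Ccn1 37.7-fold (31.4 to 45.7) and Thbs2 7.32-fold (5.37 to 10.2). Sparcl1 was 3.25-fold higher (2.96 to 3.57), below the calling threshold, and Postn was low in both.

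The median log2 difference of the 9 genes, glia minus neuron, was 6.73, beside 0.95 over all genes tested. Of all genes called, 25.4% were lower in glia. That share became 48.4% when TPM was rescaled by TMM (trimmed mean of M values, a scaling by the bulk of genes) and 39.4% in CPM, and Thbs2 was no longer called under the TMM rescaling or with 5 TPM added in place of 1. Fibroblast markers summed to 321 TPM in glia and 16.6 TPM in neurons, and astrocyte markers to 3071 TPM in glia and 426 TPM in neurons. Of the astrocyte sums, Aldoc alone gave 325 TPM in glia and 359 TPM in neurons. Of the 10 astrocyte markers, 6 were called higher in glia and 0 lower, beside 30.5% and 10.4% of all genes. Microglia markers summed to 845 TPM in glia and 74.1 TPM in neurons. Their part in these differences was not tested.

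In glia against the 3 brain regions, 7 genes were called higher, Thbs1, Thbs2, Ccn1, Ccn2, Sparc, Tnc and Fn1, and 1 lower, while 6.19% of the 12664 genes tested were called higher and 8.10% lower. Thbs1 exceeded the highest region, cortex, 151-fold (115 to 201). Ccn1 was 38.1-fold above cortex (30.8 to 47.7) and Ccn2 17.6-fold (15.2 to 20.4), while Tnc was 26.7-fold above cerebellum (23.4 to 30.5) and Fn1 27.1-fold above hippocampus (24.1 to 30.7). Thbs2, 4.85-fold (3.64 to 6.59), and Sparc, 4.20-fold (4.06 to 4.34), stood close to the threshold. Both were called against cerebellum, the highest region for each.

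Sparcl1 was the 1 gene called lower in glia, 7.02-fold below hippocampus (6.66 to 7.40). Postn in glia lay within the range of the regions. The median log2 difference of the 9 genes, glia minus regions, was 5.10, beside -0.15 over all genes tested. Thbs2 was not called when 5 TPM was added in place of 1. Astrocyte markers did not separate glia from the regions by their sum, at 3071 TPM in glia and 2816 to 6115 TPM in the regions. Single markers went both ways, with 2 of 10 called higher in glia and 3 lower, beside 6.19% and 8.10% of all genes. Sox9 had 94.4 TPM in glia and 13.3 to 17.8 TPM in the regions. S100b had 6.02 TPM in glia and 157 to 883 TPM in the regions. Fibroblast markers summed to 321 TPM in glia and 68.5 to 117 TPM in the regions, with Col1a1 at 59.2 TPM in glia and at most 5.19 TPM in a region, whereas the fibroblast marker Dcn was at 2.92 TPM in glia and 22.2 to 61.4 TPM in the regions. Mural cell markers summed to 52.8 TPM in glia, with Kcnj8 at 0, and to 178 to 202 TPM in the regions. Single mural markers went both ways: Pdgfrb had 25.1 TPM in glia and 8.43 to 10.5 TPM in the regions, and Rgs5 had 2.62 TPM in glia and 63.8 to 73.6 TPM in the regions. Neuron markers summed to 459 TPM in glia and 7446 to 8551 TPM in the regions, with 0 of 10 called higher in glia and 8 lower. Oligodendrocyte markers summed to 264 TPM in glia and 4571 to 6060 TPM in the regions, with 0 of 10 called higher and 6 lower. The part of these cell types in the result was not tested.

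Glia and MEFs shared high levels of most of the 9 genes. Only Sparcl1 was called higher in glia, 83.4-fold above ICR MEFs (54.4 to 135), and 2 genes were called lower, Postn 72.4-fold (48.5 to 113) and Thbs2 9.89-fold (8.81 to 11.1) below OG2 MEFs. Of 10647 genes tested, 10% were called higher in glia and 2.92% lower, so with 9 genes these counts are small numbers on either side. Thbs1 in glia lay 2.81-fold below ICR MEFs (2.74 to 2.87) and Fn1 2.0-fold below OG2 MEFs (1.97 to 2.03), both uncalled. Ccn1 was 1.61-fold above ICR MEFs (1.53 to 1.69).

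In TPM, Sparc and Tnc differed little between glia and MEFs: Sparc was 1.16-fold above ICR MEFs (1.13 to 1.18) and Tnc 1.14-fold below OG2 MEFs (1.11 to 1.18). In CPM the gap of Tnc was wider, at 1243 in glia, 1799 in ICR MEFs and 1753 in OG2 MEFs. The direction for Sparc depended on scaling: its log2 ratio was 0.21 in TPM and -0.21 after TMM rescaling of TPM, and in CPM glia lay between the MEF libraries. Ccn2, 1.42-fold above OG2 MEFs (1.36 to 1.49), lay between the MEF libraries after that rescaling. The median log2 difference of the 9 genes, glia minus MEFs, was -0.24, beside 0.50 over all genes tested, and the share of called genes that were lower in glia was 22.5% in TPM and 41.3% after TMM rescaling. Fibroblast markers summed to 321 TPM in glia, against 9104 TPM in ICR MEFs and 8009 TPM in OG2 MEFs, and Col1a1 stood at 59.2 TPM in glia, against 3058 and 2853 TPM in those libraries.

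Neurons held little of the set. Against the 3 brain regions, 0 of the 9 genes were called higher in neurons and 2 lower, among 1.68% and 16.4% of all 11960 genes tested. Sparcl1 in neurons was 22.8-fold below hippocampus (21.0 to 24.8) and Sparc 9.60-fold below it (8.21 to 11.3). Thbs1 was 3.87-fold (2.16 to 7.30) and Ccn2 4.32-fold (2.0 to 10.3) below cerebellum, on 16 and 9 reads in neurons and on levels under 10 TPM in both libraries. Ccn2 was called lower once cerebellum was left out, which made 3 genes. Over all genes, 2431 were then called lower in neurons, against 1956 with cerebellum.

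The median log2 difference, neuron minus regions, was -1.48 for the 9 genes and -1.13 over all genes tested, so the set lay near the bulk of genes. Of all called genes 90.7% were lower in neurons, a share of 46.9% after TMM rescaling and 68.3% in CPM. Astrocyte markers summed to 426 TPM in neurons and 2816 to 6115 TPM in the regions, and endothelial markers to 36.1 TPM in neurons and 330.3 to 381 TPM in the regions. Of these sums in neurons, Aldoc alone gave 359 TPM of the astrocyte sum and Slc2a1 31.9 TPM of the endothelial sum. The part of these cell types in the lower Sparc and Sparcl1 was not tested.

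In MEFs against the brain regions, 7 genes were called higher and 1 lower, beside 5.68% and 14.5% of 12604 genes tested. Thbs1 in ICR MEFs was 423-fold above cortex (323 to 565), Postn in OG2 MEFs 54.9-fold above cortex (36.8 to 85.9) and Fn1 in OG2 MEFs 54.3-fold above hippocampus (48.2 to 61.4). Thbs2 was 48-fold above cerebellum (36.8 to 63.8), Tnc 30.4-fold (26.7 to 34.8), Ccn1 22.9-fold above cortex (18.5 to 28.7) and Ccn2 11.6-fold (10.1 to 13.5). Sparcl1 was 586-fold lower in ICR MEFs than in hippocampus (383 to 947), the largest ratio of that comparison among the 9.

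Sparc was 3.21-fold higher in OG2 MEFs than in cerebellum (3.10 to 3.31) and was not called, though it was called when cerebellum was left out, in CPM, and with TMM factors of the counts or of TPM. The median log2 difference, MEFs minus regions, was 5.70 for the 9 genes and -0.75 over all genes. The share of called genes that were lower in MEFs was 71.8% in TPM and 53.2% after TMM rescaling. Glia and MEFs were compared with the same 3 region libraries, so the folds of these comparisons are not independent.

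**Figure D4:**
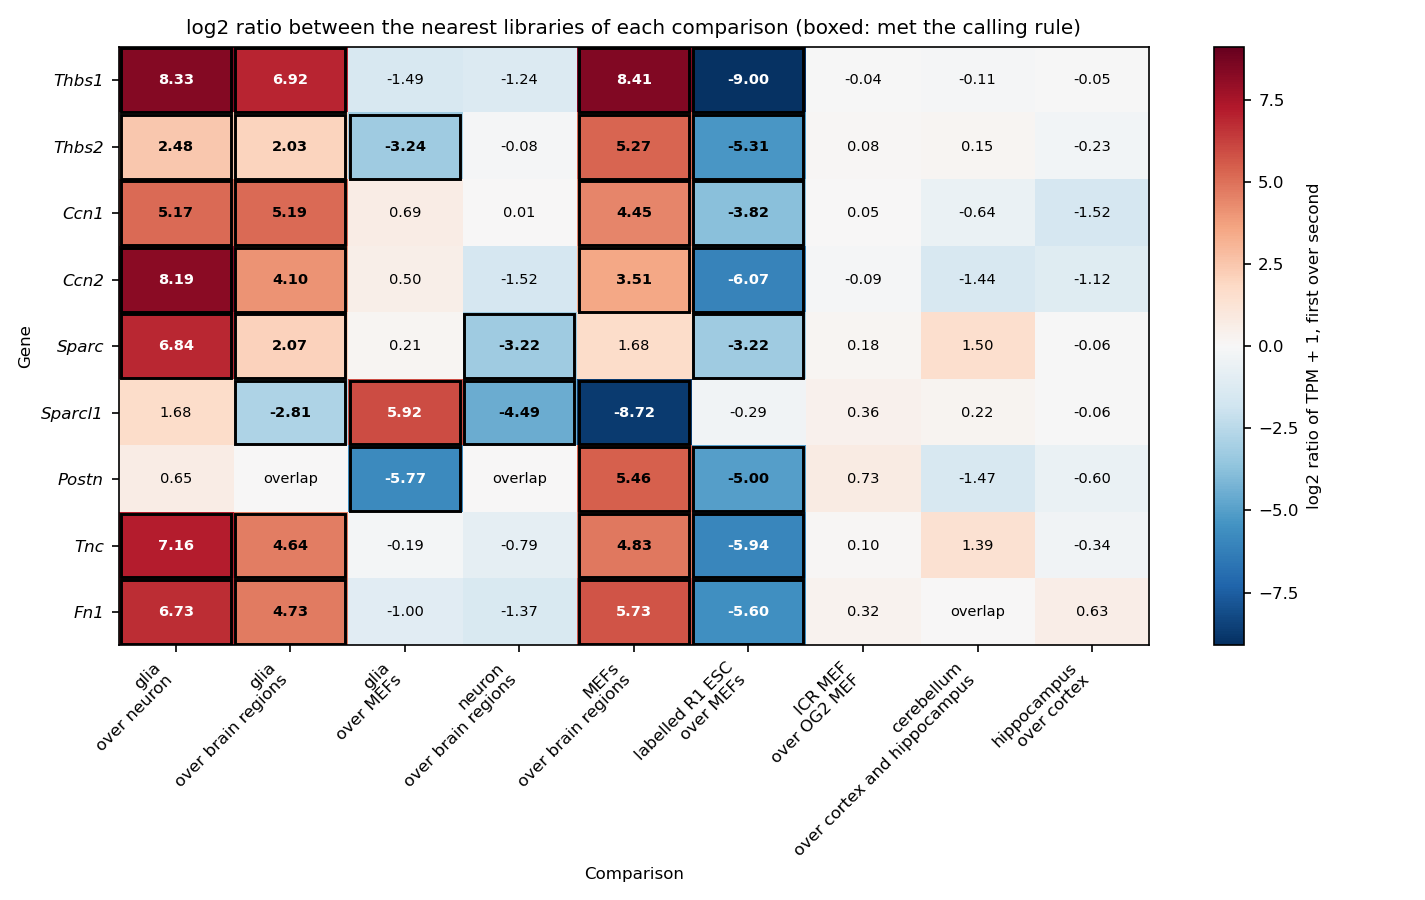
log2 ratio of TPM + 1 between the nearest libraries of each comparison, the group named first over the group named second, for the 9 genes (boxed bold values met the calling rule; overlap means that the ranges of the groups overlapped). Glia over neuron and glia over brain regions each have 7 boxed positive values, and Sparcl1 is the 1 boxed negative value in glia and in MEFs over brain regions, at -2.81 and -8.72.

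Against the MEFs, the library labelled R1 ESC had 0 genes called higher and 8 called lower, all but Sparcl1, which was under 3 TPM on both sides. Here 4.49% of 9114 genes were called higher and 44.6% lower, so being lower was common. Thbs1 was 728-fold lower than in ICR MEFs (533 to 1025), Ccn2 78.8-fold lower (57.3 to 112) and Tnc 71.6-fold lower than in OG2 MEFs (59.2 to 87.4). Thbs2 was 49.8-fold, Fn1 49.5-fold, Postn 37.3-fold, Ccn1 14.5-fold and Sparc 9.37-fold lower than in OG2 MEFs. The median log2 difference was -5.36 for the 9 genes and -2.04 over all genes. The share of called genes that were lower, 90.9% in TPM, was 50.6% after TMM rescaling of TPM, 80.2% with TMM factors of the counts and 77.3% in CPM, and Sparc was not called after TMM rescaling of TPM. These values describe the library labelled R1 ESC, whose few pluripotency transcripts were given above.

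Between the MEF libraries, 0 of the 9 genes were called in either direction, and 0.437% of 8699 genes were called higher in ICR MEFs and 0.149% lower. In TPM, Postn showed the largest difference, 1.66-fold higher in ICR MEFs (1.57 to 1.77), followed among genes above 10 TPM by Fn1 at 1.25-fold (1.23 to 1.26) and Sparc at 1.13-fold (1.11 to 1.15). The effective length of Postn was 2462 bases in ICR MEFs and 2856 bases in OG2 MEFs. In CPM its gap was narrower, at 507 in ICR MEFs and 370 in OG2 MEFs. Thbs1 was 1.03-fold lower in ICR MEFs (1.01 to 1.04) and Ccn1 differed by no more than counting error, at 1.03-fold (0.980 to 1.09). With 1 library for each strain, strain and library cannot be told apart.

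Among brain regions, 0 of the 9 genes were called between cerebellum and the other two, where 2.25% of 11728 genes were called higher in cerebellum and 3.01% lower. Sparc was 2.83-fold higher in cerebellum than in cortex (2.66 to 3.0) and Tnc 2.97-fold higher (2.27 to 3.91). Ccn2 was 3.03-fold lower in cerebellum than in hippocampus in TPM (1.88 to 4.96). Its effective length was 1740 bases in hippocampus, 2227 bases in cerebellum and 2236 bases in cortex. In CPM, Ccn2 had 12.7 in hippocampus, 5.38 in cerebellum and 36.3 in cortex. Sparcl1 was 1.17-fold higher in cerebellum than in cortex (1.14 to 1.20). Postn had 1 read in cerebellum and 12 in hippocampus, a ratio of 13.2 with an interval of 1.96 to 566. Astrocyte markers summed to 6115 TPM in cerebellum, 3192 TPM in hippocampus and 2816 TPM in cortex. Aldoc alone gave 3259, 1073 and 1037 TPM of these sums, and Slc1a2 went the other way, at 188, 691 and 637 TPM. Of the 10 markers, 1 was called higher in cerebellum and 0 lower, beside 2.25% and 3.01% of all genes. The part of astrocytes in the higher Sparc was not tested.

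Without hippocampus, Ccn1 and Ccn2 were called lower in cerebellum than in cortex, among 564 genes called lower in all. With hippocampus, 353 genes were called lower in cerebellum. Hippocampus and cortex had 0 genes called, with 0.452% of 11059 genes higher in hippocampus and 0.832% lower. In TPM, Ccn1 was 3.15-fold (1.90 to 5.49) and Ccn2 2.24-fold (1.63 to 3.16) lower in hippocampus than in cortex. Fn1 was 1.57-fold higher in hippocampus in TPM (1.33 to 1.84), but with its shorter effective length there it had 73.5 CPM in hippocampus and 65.5 CPM in cortex.

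The relatives of the 9 genes did not all share their distribution. In the thrombospondin family Thbs3, a pentameric thrombospondin, was called higher in glia than in neurons, at 116 TPM in glia and 25.3 TPM in neurons. With the members Thbs1 and Thbs2, 3 of 5 listed genes were called higher there, beside 30.5% of all genes. In the CCN family Ccn3 went the other way from Ccn1 and Ccn2, with 27.6 TPM in glia and 134 TPM in neurons. Ccn5, a CCN protein that lacks the C-terminal domain, had 77.9 TPM in glia, 278 TPM in ICR MEFs and 153 TPM in OG2 MEFs, against 0.84 TPM in cerebellum and 0 in hippocampus and cortex, and Ccn4 was lower in glia, at 9.71 TPM, than in ICR MEFs, at 125 TPM, and OG2 MEFs, at 82.4 TPM.

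In the SPARC family, 2 of 8 listed genes were called higher in glia than in the regions, Sparc and Fstl1, and 4 lower, Sparcl1 and the testican proteoglycans Spock1, Spock2 and Spock3, beside 6.19% and 8.10% of all genes. Fstl1, a secreted follistatin-like glycoprotein, had 551 TPM in glia and 23.2 to 31.4 TPM in the regions, and Spock2 had 5.34 TPM in glia and 313 to 435 TPM in the regions. The family thus held members high in glia and MEFs and members high in brain tissue. Tnr, the tenascin of perineuronal nets, resembled Sparcl1 rather than Tnc in this, with 4.46 TPM in glia and 37.1 to 73.0 TPM in the regions. Tgfbi, the relative of Postn, had 27.2 TPM in glia, against 3.82, 2.27 and 4.18 TPM in cerebellum, hippocampus and cortex, and was called higher in glia where Postn was not.

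Among 12 other provisional and pericellular matrix genes, 8 were tested between glia and the regions, of which 3 were called higher in glia and 1 lower, beside 6.19% and 8.10% of all genes. Spp1 (osteopontin) had 455 TPM in glia and 13.3 to 46.4 TPM in the regions, and Fbln2 (fibulin-2) 51.5 TPM in glia and 3.54 to 8.96 TPM in the regions. Vtn (vitronectin) was the lower one, at 0.36 TPM in glia and 66.1 to 89.2 TPM in the regions, and the fibrinogen genes Fga, Fgb and Fgg were at 0 in all 8 libraries. Against MEFs, Fbln2, Emilin1 and Vcan were called lower in glia. Vcan (versican) had 8.75 TPM in glia, against 163 TPM in ICR MEFs and 141 TPM in OG2 MEFs.

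Of 16 listed receptors, 8 were called higher in glia than in neurons and 4 higher than in the regions, with 0 called lower in either comparison. Over all genes 30.5% and 6.19% were called higher. The median log2 differences were 3.61 over the 10 receptors tested against neurons and 1.28 over the 12 tested against the regions, beside 0.95 and -0.15 over all genes. Itgb1, the beta-1 subunit shared by fibronectin and thrombospondin receptors, had 1203 TPM in glia, 15.0 TPM in neurons and 46.8 to 49.6 TPM in the regions. Its fibronectin partner Itga5 had 31.2 TPM in glia, 1.20 to 3.94 TPM in the regions, and 146 TPM in ICR MEFs and 159 TPM in OG2 MEFs. Itgb8, which with alpha-v activates TGF-beta, was called higher in glia than in MEFs, at 53.4 TPM in glia, 1.13 TPM in ICR MEFs and 0.66 TPM in OG2 MEFs.

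Of 14 listed YAP and TEAD pathway genes, 12 were called higher in glia than in neurons and 8 higher in glia than in the regions, beside 30.5% and 6.19% of all genes, with median log2 differences over the 12 genes tested in each of 5.17 and 2.83, beside 0.95 and -0.15 over all genes. In MEFs 8 were called higher than in the regions, beside 5.68% of all genes. In the library labelled R1 ESC 12 were called lower than in MEFs, beside 44.6% of all genes, with a median log2 difference of -4.11 over 13 tested and -2.04 over all genes. The co-activator Wwtr1 (TAZ) had 140 TPM in glia, 1.78 TPM in neurons and 10.3 to 11.8 TPM in the regions. Ankrd1, a target gene, separated glia from MEFs, with 0.45 TPM in glia, 37.1 TPM in ICR MEFs and 56.7 TPM in OG2 MEFs.

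Among 15 TGF-beta pathway genes, 13 were called higher in glia than in neurons and 4 higher in glia than in the regions, beside 30.5% and 6.19% of all genes. The median log2 differences were 3.35 over 13 tested and 1.14 over 14 tested. Tgfbr2, the type II receptor, had 41.9 TPM in glia, 0.50 TPM in neurons and 7.30 to 9.53 TPM in the regions. The ligand Tgfb3 had 111 TPM in glia, 3.01 TPM in neurons and 6.88 to 14.9 TPM in the regions. Of 10 genes of the SRF and myocardin-related pathway, 7 were called higher in glia than in neurons, beside 30.5% of all genes. Against the regions, 7 were called higher in glia and 7 higher in MEFs, where 6.19% and 5.68% of all genes were called higher. Acta2 (smooth muscle actin), among those called, had 4147 TPM in glia, 7.60 TPM in neurons and 8.02 to 13.5 TPM in the regions. In MEFs it had 4302 TPM (ICR) and 5067 TPM (OG2). The genes not called in these comparisons were Srf, Mrtfa and Mrtfb. Srf had 31.6 TPM in glia and 17.9 to 38.0 TPM in the regions. Both others were lower in glia than in each region, Mrtfa at 16.5 against 17.5 to 59.4 TPM and Mrtfb at 16.6 against 23.2 to 99.3 TPM.

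Of 9 listed astrocyte synaptogenic or engulfment factors, which include 4 of the members, 4 were called higher and 1, Sparcl1, lower in glia than in the regions, beside 6.19% and 8.10% of all genes. Of the 4 called higher, 3 were the members Thbs1, Thbs2 and Sparc, and Gpc4 was the 1 called among the other 5 genes. Gpc4, a glypican that recruits AMPA receptors, had 622 TPM in glia, 17.7 TPM in neurons and 2.52 to 23.2 TPM in the regions. Chrdl1, a BMP antagonist released by astrocytes, had 36.9 TPM in glia and 0.08 TPM in neurons.

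For each member the 3 protein-coding genes with the most similar pattern were found among 12239 candidates, by the root mean square difference (RMSD) of log2(TPM + 1) after each gene was centred on its mean over the 8 libraries. Thbs1 was closest to the collagen gene Col5a2, at an RMSD of 0.75, then Anxa1 and Col8a1, and Thbs2 to Col5a1, at 0.20, then Ccn4 and Loxl4. Ccn2 was closest to Prss23, Col11a1 and Cav1, and Fn1 to Col12a1, Cald1 and Myof. Cald1 (caldesmon) was also among the 3 for Tnc, after Myl12a and Cyp1b1. The closest pair among the members was Tnc and Fn1, at 0.65.

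Ccn1 had other neighbours than Ccn2: Top2a, at an RMSD of 0.58, Kif20a and Gtse1, which are genes of cell division. Cyfip2, at 0.80, and Trf, at 0.88, were among the 3 genes closest to Sparcl1. Postn was closest to Il1rl1, C1qtnf3 and Lrrc17, and Sparc to Cast, Bag3 and Kirrel. Sparcl1 lay farthest from every other member, with RMSD values of 5.03 to 7.02. These distances describe 8 libraries and carry no test.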

How the data were processed

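RNA was sequenced from 8 mouse libraries, 1 per group, from TruSeq preparations of total RNA, per the labels' protocols. The tools named are Bowtie and RSEM with build mm10, per the submitters' processing notes. Nothing in the labels or headers states the annotation release, the strandedness or tool versions. Per the file headers, the authors deposited an expected count, an effective length and a TPM value for each of 29713 Ensembl genes. TPM was used as deposited by the authors, and the estimated count only for counting intervals, CPM and scaling.

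Symbols were matched to 29202 of these genes. Between groups, levels were compared on TPM with 1 TPM added, a minimum of 10 TPM and a 4-fold gap between the nearest libraries, and the rule was tested on simulated data. Genes reaching 10 TPM in a library of the comparison counted as tested. Exact 95% intervals came from the counts. TMM factors were computed with edgeR 4.0.16 in R 4.3.3, other steps with Python 3.11.15, pandas 2.3.3 and scipy 1.17.1. Promoters came from RefSeq on GRCm38.p6.

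All 9 members are named. From each of 20 gene lists, up to 4 called genes with the largest log2 ratio were eligible per comparison, and otherwise the 2 with the highest TPM, besides the defining markers and 3 genes of most similar pattern per member. Levels of those named are also given in other libraries. Gjb6, Krt5, Cldn4, Kcnj8, Srf, Mrtfa, Mrtfb, Fga, Fgb and Fgg are named for their values. Some genes that the rule selects are not reported here. The members and lists were chosen with earlier results of these data known. Alternatives were 0.1 or 5 TPM added, no minimum, TMM factors of the counts or of TPM, CPM, and each library left out where a side had more than 1.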

Additional observations from a re-analysis of the deposited data

How the results depend on the processing

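No paired analysis was possible because each group had 1 library. Of 142 alternative counts of members called, 141 stayed within 1.5 times the reported count. The exception was 2 genes called lower in cerebellum than in the other regions without hippocampus, against 0 with it. Over all genes, 564 were called lower there without hippocampus and 353 with it. In CPM, 5 genes reached 10 in neurons, against 3 in TPM. In the library labelled R1 ESC, 7 reached it after TMM rescaling of TPM and 8 in CPM, against 3 in TPM. Ccn1 exceeded Ccn2 in 2 libraries in CPM, which leaves out length, against 4 in TPM. The rescaling divided TPM of the library labelled R1 ESC by 0.276, and in glia the effective length was 2169 bases for Ccn2 and 1832 bases for Ccn1. What lies behind these shifts beyond such arithmetic was not tested. Of 639 alternative log2 ratios of members, 475 stayed within a margin and 164 moved by more, and no called one changed sign. The margin was counting error, or a fixed one where the groups overlapped. Part of the 475 could not move. The minimum TPM does not enter the ratio, nor does a left-out library that is not the nearest. TMM rescaling of TPM brought the median log2 difference over all genes to between -0.18 and 0.03 in the 9 comparisons, from between -2.04 and 0.95. For the 7 genes called higher in glia than in neurons, the log2 ratios ran from 2.48 to 8.33 in TPM, 1.76 to 7.67 after that rescaling and 2.09 to 8.39 in CPM. For the 8 genes called lower in the library labelled R1 ESC than in MEFs they ran from -9.00 to -3.22 in TPM and -7.49 to -1.47 after rescaling. Depth limits the low levels, since members under 5 TPM rested on 1 to 73 counts.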
